A study of Mus musculus with 8 samples.

Results

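The CC chemokine ligands are 10 genes of this study, Ccl2, Ccl7, Ccl12, Ccl8, Ccl3, Ccl4, Ccl5, Ccl6, Ccl9 and Ccl24, out of 11836 genes tested. They were taken as all probe sets whose single gene symbol in the platform annotation is one of these names, which gave 11 probe sets of the 45037 that are not controls. All 11 passed the filter on low values, Ccl9 with 2 probe sets and every other gene with 1. The genes were chosen by their measured expression difference between the deleted and control arrays below, so those differences are given as a description with no test.

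The arrays measured RNA of myeloid cells made from bone marrow of C57BL/6 Rosa26-Cre-ERT2 knock-in mice, in which Cre works once tamoxifen is present and its locus is active in most cell types. The cells had been immortalized by retroviral Hoxa9 together with floxed Meis1, a cDNA that Cre can remove, and grew with 10% serum and 5 ng/ml interleukin-3. The Meis1 deleted group (4 arrays) had received 2 µM 4-hydroxytamoxifen and keeps Hoxa9, while the control group (4 arrays) was untreated and carries Hoxa9 and Meis1. Both groups share the Cre allele and the Hoxa9 virus, and the drug and Cre activity were present in the deleted group alone, so they cannot be told apart from the loss of Meis1. The comparison asks which genes depend on Meis1 in cells that keep Hoxa9. The labels do not state if the replicates were separate cultures, so each p-value reflects the spread among these 8 samples alone, which could be technical.

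CC chemokines are small secreted proteins with a pair of adjacent cysteines near the start of the mature chain. They bind G protein-coupled receptors of leukocytes and heparan sulphate on cell surfaces, and they guide monocytes, granulocytes and lymphocytes along gradients. The monocyte chemoattractants (Ccl2, Ccl7, Ccl12 and Ccl8) are made by activated macrophages and many other cells. The macrophage inflammatory proteins and their relatives (Ccl3, Ccl4, Ccl5, Ccl6 and Ccl9) are made by myeloid or lymphoid cells, and Ccl24 belongs to the eotaxins, which attract eosinophils.

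Values are log2 expression values as deposited, so a difference of 1 is a doubling on that scale. The medians of the 8 arrays lay between 4.69 and 4.74, the filter threshold was 4.29, and no detection calls were used, so a value near these can only be called low. By the spiked bioB hybridisation control the arrays fell into a pair of sets: set 1 held 3 deleted and 2 control arrays and set 2 held 1 deleted and 2 control arrays. Meis1 deleted replicate 1 stood apart for some probe sets, among them that of Hoxa9, which read 8.95 there and 9.97 to 10.07 in the other deleted arrays. The Meis1 probe sets did not follow the deletion (5.02 ± 0.07 against 5.00 ± 0.05 and 3.78 ± 0.07 against 3.64 ± 0.05, SD, n = 4), and nothing used here places them within the viral cDNA, so they check neither deletion nor labels. The myeloid label was met by Ptprc, Lyz2, Mpo, Elane, Itgam and Csf1r, each above 7 in the mean of both groups.

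RefSeq promoter windows (GRCm38.p6) matched 5 of the 10 genes, Ccl12, Ccl8, Ccl3, Ccl6 and Ccl9. Shown here are the 250 bases before the start of Ccl12 and Ccl8, neighbours whose levels differed most between groups among these 5, and of Ccl6 and Ccl9, neighbours whose differences were far from each other. Each is read 5′ to 3′ on the strand of its gene, and capitals mark matches to the motifs described next.
Ccl12, chr11:82101595-82101844, plus strand: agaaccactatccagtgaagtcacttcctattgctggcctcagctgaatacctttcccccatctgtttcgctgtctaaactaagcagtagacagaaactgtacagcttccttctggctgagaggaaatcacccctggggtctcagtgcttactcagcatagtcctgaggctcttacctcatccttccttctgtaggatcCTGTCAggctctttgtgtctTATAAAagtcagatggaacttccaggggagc
Ccl8, chr11:82114935-82115184, plus strand: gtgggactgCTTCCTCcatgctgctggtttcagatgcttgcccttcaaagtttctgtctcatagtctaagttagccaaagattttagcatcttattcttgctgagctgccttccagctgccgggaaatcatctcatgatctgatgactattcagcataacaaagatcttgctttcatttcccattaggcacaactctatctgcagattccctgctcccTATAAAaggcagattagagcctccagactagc
Ccl6, chr11:83593088-83593337, minus strand: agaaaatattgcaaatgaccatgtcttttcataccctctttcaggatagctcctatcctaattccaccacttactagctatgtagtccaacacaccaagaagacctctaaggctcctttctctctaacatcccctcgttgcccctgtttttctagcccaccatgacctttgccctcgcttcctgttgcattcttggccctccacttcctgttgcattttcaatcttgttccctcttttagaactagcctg
Ccl9, chr11:83578637-83578886, minus strand: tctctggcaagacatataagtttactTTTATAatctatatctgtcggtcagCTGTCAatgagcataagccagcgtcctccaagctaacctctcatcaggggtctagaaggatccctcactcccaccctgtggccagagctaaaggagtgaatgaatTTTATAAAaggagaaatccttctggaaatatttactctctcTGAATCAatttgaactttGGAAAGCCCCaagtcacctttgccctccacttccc

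The motifs, searched on both strands, were the NF-kB site (by its usual consensus), the interferon response element core (GAAA, 2 bases of any kind, GAAA), the AP-1 site TGANTCA, the C/EBP core TTGCNNAA, the PU.1 core GAGGAAG, the GC box GGGCGG, the Meis core TGACAG, the Hox-Pbx site TGATNNAT and the TATA box TATAAA. Matches are a description of letters and not of binding sites. A TATA box lay 31 to 26 bases before the start of Ccl12 and 32 to 27 bases before that of Ccl8, a motif that 12.4% of all 32817 windows hold. The Meis core was in the windows of Ccl12 (51 to 46 bases before the start) and Ccl9 (199 to 194), against 15.9% of all windows. Ccl9 also held the AP-1 site (6.75% of windows), the NF-kB site (3.9%) and the TATA letters at 3 places, a pair of which overlap. The interferon core (2.97% of windows), the C/EBP core (9.57%) and the GC box (32.7%) had no match in the 5 windows, the PU.1 core (10.6%) matched in Ccl8 alone and the Hox-Pbx site (7.69%) in Ccl3 alone.

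The upstream sequences of Ccl12 and Ccl8 had the same base at 90 of the 250 distances from the start (36%). The other 9 pairs among the 5 windows shared between 20% and 28%. Ccl12 and Ccl8 also have the run ggaaatca at the same distance, 128 to 121 bases before the start. Ccl6 and Ccl9 shared the longest run of any pair, the 13 bases gccctccacttcc, 55 to 43 bases before the start of Ccl6 and 14 to 2 before that of Ccl9.

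All 10 CC chemokine ligands read higher after the deletion, and the 4 monocyte chemoattractants stood far beyond the rest. For the brightest probe set of each of the 10 genes every deleted array lay above every control array. This pattern was shown by 19.7% of all genes tested in this direction and by 18.9% in the opposite one. For the second Ccl9 probe set the groups overlapped. Differences of at least 1 were seen for 7 of the 10 (2.51% of all genes) and of at least 4 for 4 (0.135% of all genes). With an offset of 64 added on the linear scale, Ccl4 (0.89) and Ccl5 (0.61) were under 1. The median difference was 1.56, beside -0.0044 over all genes tested. The genes were chosen with this contrast known, so nothing is read from these shares. In these bulk samples more cells that make a chemokine and more RNA per cell cannot be told apart.

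**Figure D1:**
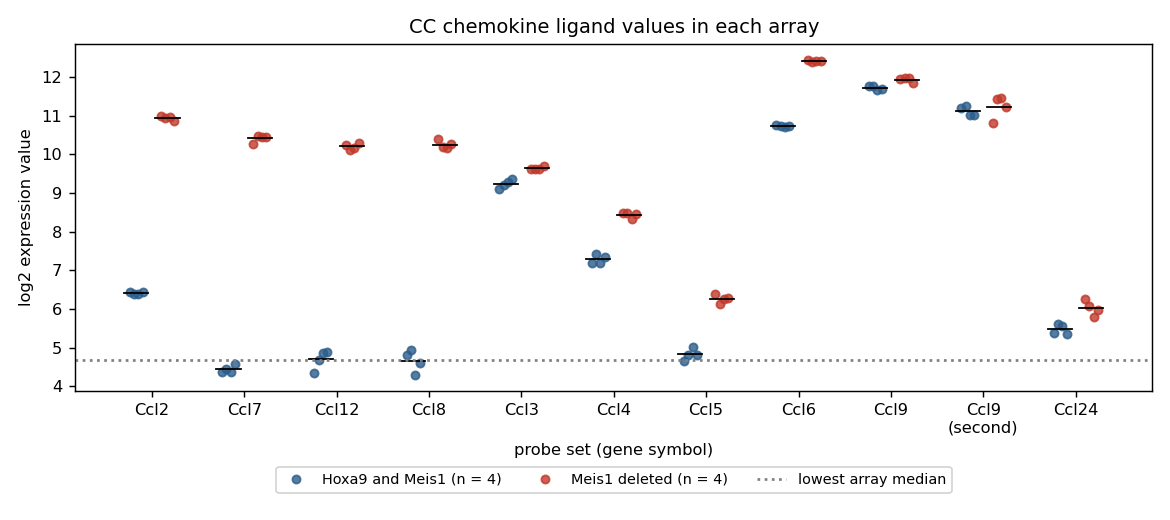
Log2 expression value (y axis) of the 11 probe sets of the CC chemokine ligands (x axis) in each array, with 4 control arrays in blue and 4 Meis1 deleted arrays in red. Black bars are group means and the dotted line is the lowest array median, 4.69; Ccl7, Ccl12 and Ccl8 lie near that line in the control arrays and above 10 in the deleted arrays.

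Ccl2, the main ligand of the monocyte receptor Ccr2, read 10.98, 10.93, 10.96 and 10.85 in Meis1 deleted replicates 1 to 4 and 6.43, 6.40, 6.39 and 6.45 in control replicates 1 to 4. The arrays within a group were nearly alike and the closest deleted and control arrays were 4.40 apart. Its log2 difference was 4.51 ± 0.05 (SE, n = 4 per group), which is 22.8-fold on the deposited scale. Of the 4 chemoattractants it was the only one whose control level was well above the array medians.

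Ccl7, which binds Ccr2 and other receptors, read 10.27, 10.48, 10.45 and 10.44 in the deleted arrays and 4.36, 4.46, 4.36 and 4.58 in the control arrays. The control values all lay below the lowest array median. The difference of 5.97 ± 0.07 ranked 3 from the top among all genes, and since the control level is near the floor of the table its size is uncertain.

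Ccl12, a mouse ligand of Ccr2, read 10.24, 10.11, 10.16 and 10.30 in the deleted arrays and 4.35, 4.69, 4.88 and 4.88 in the control arrays. Ccl8, which in the mouse acts through Ccr8, read 10.38, 10.17, 10.15 and 10.26 in the deleted arrays and 4.82, 4.94, 4.30 and 4.62 in the control arrays. For both genes the control arrays straddled the array medians and varied more (SD 0.25 and 0.28) than the deleted arrays (SD 0.09 and 0.11). Ccl12 differed by 5.50 ± 0.11 and Ccl8 by 5.57 ± 0.13, ranks 6 and 4, so all 4 chemoattractants were among the 12 largest differences upward, with Ccl2 at rank 12.

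The low control levels set how these 4 sizes are read. With the offset of 64, which damps low values, the differences were 3.75 for Ccl2, 4.05 for Ccl7, 3.78 for Ccl12 and 3.83 for Ccl8. On that scale the 4 genes lay closer together than on the deposited one.

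Ccl3 and Ccl4, a neighbouring pair known as macrophage inflammatory proteins, differed from each other in size. Ccl3, a ligand of Ccr1, read 9.62, 9.61, 9.62 and 9.69 in the deleted arrays and 9.10, 9.22, 9.28 and 9.36 in the control arrays. Ccl4, which attracts monocytes and T cells, read 8.47, 8.48, 8.33 and 8.46 in the deleted arrays and 7.20, 7.43, 7.18 and 7.35 in the control arrays. The Ccl3 groups were 0.24 apart at their closest, with a difference of 0.40 ± 0.06, while the Ccl4 groups were 0.90 apart with a difference of 1.14 ± 0.07.

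Ccl5, a ligand of Ccr1 and Ccr3 made by T cells and macrophages, read 6.40, 6.13, 6.25 and 6.29 in the deleted arrays and 4.66, 4.82, 5.01 and 4.82 in the control arrays. The control arrays lay close to the array medians, and the deleted arrays were below the median of the kept probe sets (6.41). Its difference of 1.44 ± 0.08 became 0.61 with the offset of 64, less than 1 on that scale.

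Ccl6 and Ccl9, myeloid ligands of Ccr1 with a long N-terminal extension, were both high before and after the deletion. Ccl6 read 12.44, 12.39, 12.40 and 12.42 in the deleted arrays and 10.75, 10.72, 10.71 and 10.74 in the control arrays. These groups were the tightest of the family, with SD 0.02 in each, and the difference was 1.68 ± 0.04 (3.21-fold). Because the level was far above the floor, the offset of 64 left it at 1.65.

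Ccl9 differed least. Its brighter probe set read 11.94, 11.96, 11.96 and 11.83 in the deleted arrays and 11.76, 11.76, 11.65 and 11.69 in the control arrays, a difference of 0.21 ± 0.05 (1.15-fold) with groups only 0.07 apart at their closest. The second probe set read 10.82, 11.43, 11.45 and 11.22 in the deleted arrays and 11.18, 11.25, 11.00 and 11.03 in the control arrays. There the groups overlapped, with Meis1 deleted replicate 1 below every control array, and the difference was 0.12 ± 0.13.

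Ccl24, an eotaxin that acts through Ccr3, read 6.25, 6.08, 5.80 and 5.98 in the deleted arrays and 5.38, 5.60, 5.57 and 5.36 in the control arrays. The deleted arrays had an SD of 0.19, and the groups were 0.20 apart at their closest. The difference was 0.55 ± 0.10, or 0.25 with the offset of 64.

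On the deposited scale the differences of the 10 genes are grouped here into 3 tiers. Ccl7, Ccl8 and Ccl12 lay between 5.50 and 5.97, where Ccl8 and Ccl12 were within 1 SE of each other, and Ccl2 followed at 4.51. Ccl6, Ccl5 and Ccl4 lay between 1.14 and 1.68, and Ccl24, Ccl3 and Ccl9 between 0.21 and 0.55. Between Ccl2 and Ccl6 lay a gap of more than 2 with none of the 10. With the offset of 64 the middle and lowest tiers were less distinct. There Ccl6, Ccl4 and Ccl5 stood at 1.65, 0.89 and 0.61, and Ccl3, Ccl24 and Ccl9 at 0.36, 0.25 and 0.20.

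Within the sets of arrays by the bioB control the tiers were the same. In set 1 the differences of Ccl2, Ccl7, Ccl12 and Ccl8 were 4.54, 5.99, 5.65 and 5.36, and in set 2, with a single deleted array, they were 4.43, 5.97, 5.42 and 5.80. Those of Ccl6, Ccl5 and Ccl4 were 1.68, 1.52 and 1.11 in set 1 and 1.69, 1.37 and 1.19 in set 2. Ccl24, Ccl3 and Ccl9 gave 0.55, 0.46 and 0.19 in set 1 and 0.52, 0.37 and 0.16 in set 2.

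**Figure D2:**
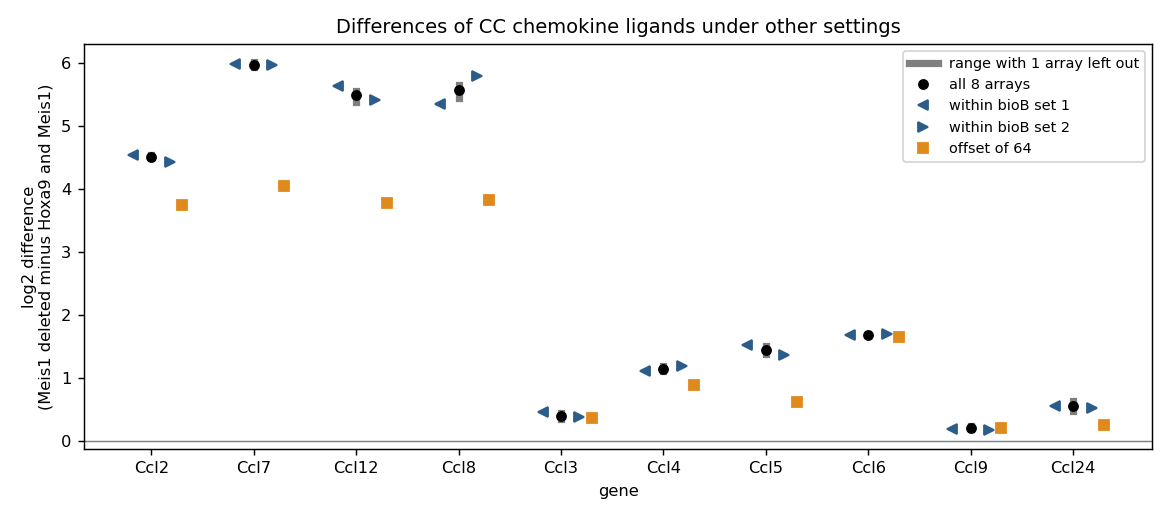
Log2 difference, Meis1 deleted minus control (y axis), of the 10 CC chemokine ligands (x axis) with all 8 arrays (black), with 1 array left out (grey range), within each set of arrays by the spiked bioB control (blue triangles) and with an offset of 64 (orange). The offset brought Ccl7 from 5.97 to 4.05 and Ccl5 from 1.44 to 0.61, while Ccl6, Ccl3 and Ccl9 hardly moved.

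The place of the genes on the chromosome was not used to choose them. In the RefSeq order of protein-coding genes, Ccl2, Ccl7, Ccl11, Ccl12, Ccl8 and Ccl1 lie side by side on chromosome 11, and Ccl5, Ccl9, Ccl6, Ccl3 and Ccl4 lie side by side further along it. Ccl24 lies next to Ccl26 on chromosome 5. All 4 differences above 4 were in the first group of neighbours and none in the second.

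Within the first group the pattern was broken by Ccl11, the eosinophil attractant eotaxin, which lies between Ccl7 and Ccl12. It read 3.36 ± 0.07 in deleted and 3.48 ± 0.05 in control arrays (SD, n = 4), under the filter in both. Ccl1, a ligand of Ccr8 that lies beyond Ccl8, read 4.46 ± 0.09 and 4.48 ± 0.08 and did not pass (log2 difference -0.02 ± 0.06, limma adjusted p = 0.806). So 4 of the 6 chemokine genes in this stretch read higher in the deleted arrays, and the remaining pair stayed near the floor of the table. The genes described here were chosen by their difference, so nothing is read from this count.

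The genes flanking the first group were looked at next. Among the 6 protein-coding genes on each side there were 11 that are not chemokines, of which 9 were tested. Of these 0 rose and 1 fell, beside 18.1% and 17.5% of all genes. The fall was that of Rffl, a ubiquitin ligase gene, by 0.37 (adjusted p = 0.0199). The call for Rffl was lost within set 1 (adjusted p = 0.255) and without Meis1 deleted replicate 2 (0.0550), control replicate 3 (0.0509) or control replicate 4 (0.0568). The DNA ligase gene Lig3, at 0.15 ± 0.06 (adjusted p = 0.0874), passed upward with the mean of its probe sets (0.0294). Downward, Myo1d (-0.17, adjusted p = 0.197) passed with the mean of its probe sets (-0.39, 2.21e-04), with its dimmest kept probe set (-0.61, 3.94e-04) and without control replicate 2 (0.0382). Tmem98 (-0.18, adjusted p = 0.176) passed downward with array weights (0.00703) and without Meis1 deleted replicate 1 (0.00754).

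Beside the second group, a pair of whey acidic protein genes rose. Wfdc21 rose from 9.10 ± 0.09 to 9.97 ± 0.13 (log2 difference 0.87 ± 0.07, adjusted p = 1.66e-05) and Wfdc18 from 6.54 ± 0.14 to 7.37 ± 0.13 (0.83 ± 0.09, adjusted p = 7.27e-05). Both lie just beyond Ccl4 and encode small secreted proteins of a family that includes protease inhibitors. Of the 12 flanking genes that are not chemokines, 7 were tested, 2 rose and 1 fell, against 18.1% and 17.5% of all genes. The fall, of the helicase gene Ddx52 (-0.17 ± 0.05, adjusted p = 0.0212), was lost with its dimmest kept probe set (0.0943), within both sets (0.163 and 0.118) and without Meis1 deleted replicate 2 (0.0567) or 4 (0.0565) or control replicate 2 (0.0609) or 3 (0.0596).

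Around Ccl24, 2 of 6 tested neighbours rose and 0 fell, beside 18.1% and 17.5% of all genes. Hip1, a clathrin adaptor gene, rose from 4.96 ± 0.29 to 6.09 ± 0.16 (log2 difference 1.13 ± 0.14, adjusted p = 2.19e-04), and Tmem120a rose by 0.31 ± 0.08 (adjusted p = 0.0154). Within set 2, which holds a single deleted array, neither passed (adjusted p = 0.0648 and 0.113).

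**Figure D3:**
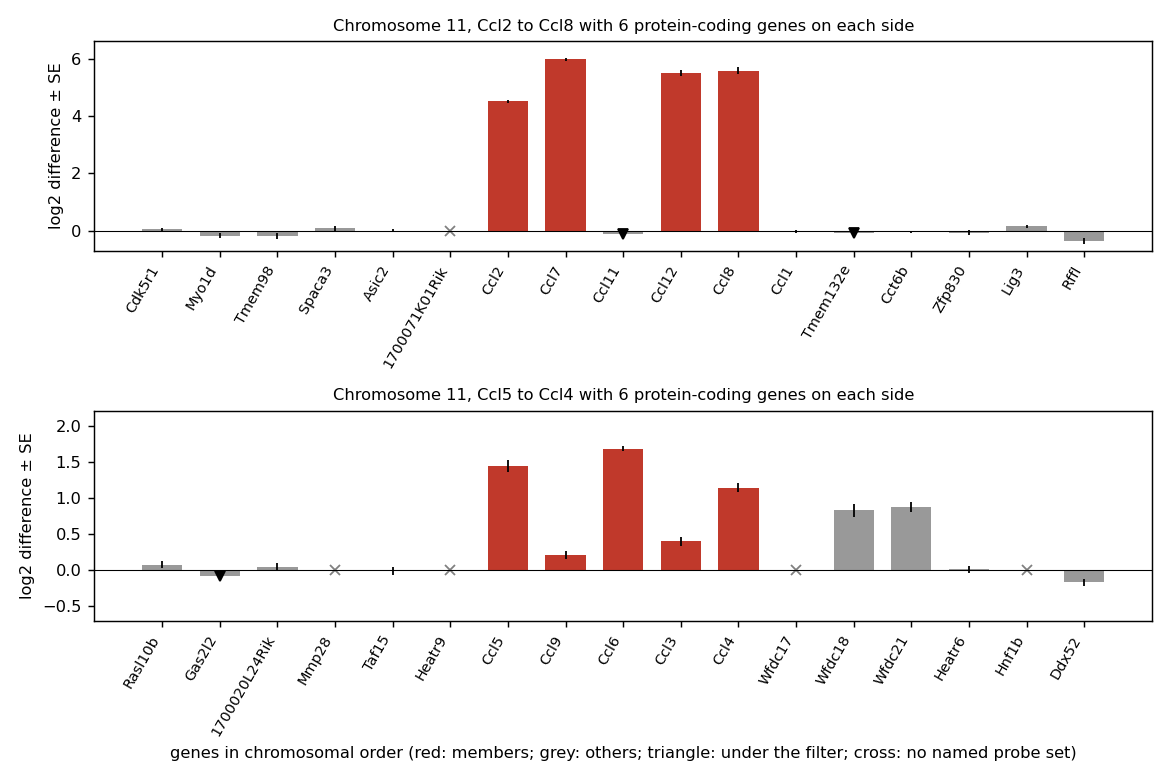
Log2 difference with SE (y axis) of protein-coding genes in RefSeq order on chromosome 11 (x axis, order only, not to distance), with the CC chemokine ligands described here in red and other genes in grey; a triangle marks a gene under the filter and a cross a gene without a named probe set. In the upper panel Ccl11 at -0.12 lies between Ccl7 at 5.97 and Ccl12 at 5.50; in the lower panel, whose y axis is shorter, Wfdc18 and Wfdc21 stand at 0.83 and 0.87 beyond Ccl4.

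Of 11 listed CC chemokine ligands outside the 10, 9 had a named probe set and 7 were tested. Of these 0 rose and 1 fell, beside 18.1% and 17.5% of all genes, and their median difference was -0.02. The 10 were chosen by their difference, which leaves ligands without a rise outside them, so nothing is read from this count. Besides Ccl11, Ccl17 lay under the filter, at 4.17 ± 0.16 and 4.15 ± 0.07. The fall was that of Ccl27a, a skin chemokine, by 0.22 (adjusted p = 0.00723), a call that was lost with the mean of its probe sets (0.0524), with its dimmest kept probe set (0.690) and within both sets (0.0704 and 0.132).

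The other CC ligands tested differed by less than 0.15 between groups and did not pass. Ccl25, a gut and thymus chemokine, read 6.41 ± 0.09 against 6.27 ± 0.06 (0.14 ± 0.06, adjusted p = 0.0949, and 0.0358 without Meis1 deleted replicate 4). Ccl20, which attracts cells with Ccr6, read 6.16 ± 0.05 against 6.28 ± 0.10 (adjusted p = 0.149). The macrophage and dendritic cell chemokine Ccl22 (4.64 ± 0.03 against 4.59 ± 0.05), the lymph node chemokine Ccl19 (4.63 ± 0.09 against 4.75 ± 0.11) and the mucosal Ccl28 (4.49 ± 0.05 against 4.51 ± 0.04) were near the array medians, with adjusted p of 0.420, 0.233 and 0.733.

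The differences of the CC chemokine receptors stayed under 1. Of 15 listed receptors and scavengers, 12 had a named probe set, 8 were tested, 2 rose and 0 fell, beside 18.1% and 17.5% of all genes. Ccr1, the receptor of Ccl3, Ccl5, Ccl6 and Ccl9, rose from 10.58 ± 0.01 to 10.93 ± 0.02 (log2 difference 0.36 ± 0.04, adjusted p = 9.41e-05), and its second probe set from 8.08 ± 0.11 to 8.68 ± 0.15. Ccrl2, an atypical receptor that does not signal through G proteins, rose from 5.71 ± 0.16 to 6.63 ± 0.11 (0.92 ± 0.09, adjusted p = 3.82e-05).

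Ccr2, the receptor of Ccl2, Ccl7 and Ccl12, had 4 probe sets that disagreed. The brightest read 11.44 ± 0.16 in deleted and 11.52 ± 0.04 in control arrays and did not pass (-0.07 ± 0.08, adjusted p = 0.501). A second read 8.92 ± 0.06 against 8.07 ± 0.03, a difference of 0.85 ± 0.05 that passed when each probe set was tested alone (adjusted p = 1.12e-06). Another read 8.32 ± 0.12 against 8.19 ± 0.03, and in the fourth Meis1 deleted replicate 1 read 7.87 while the other deleted arrays read 10.08 to 10.09. The level of Ccr2 was thus high in both groups, and its direction depended on the probe set.

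Receptors of other cell types were low. Ccr4, Ccr6, Ccr1l1, Ccr10 and Ackr2 lay between 4.36 and 5.32 in group means and did not pass (adjusted p = 0.986, 0.947, 0.823, 0.373 and 0.283). Ccr3, the receptor of Ccl24, read 3.53 ± 0.12 and 3.46 ± 0.10, and Ccr8, the receptor of mouse Ccl8, read 4.13 ± 0.05 and 4.18 ± 0.03, both under the filter. Ccr9 and Ackr4 were under it too.

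**Figure D4:**
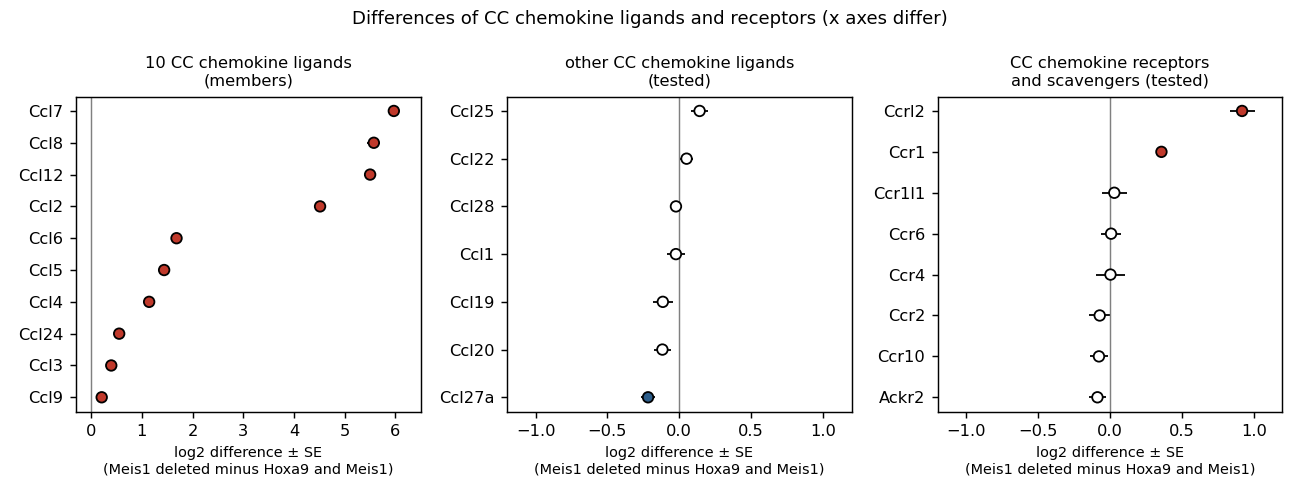
Log2 difference with SE (x axis, Meis1 deleted minus control) of the 10 CC chemokine ligands, of the other CC ligands tested and of the receptors and scavengers tested (y axis, genes). The 10 ligands are shown in red as a description with no test; in the other panels red marks genes that rose, blue genes that fell and white genes that did not pass. The left axis reaches 6.5 and the others 1.2.

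Genes that carry the signal of chemokine receptors changed in both directions. Of 30 listed genes 26 were tested, 8 rose and 3 fell, beside 18.1% and 17.5% of all genes, with a median difference of 0.12. Arrb2, an arrestin that internalises receptors, rose most, from 7.54 ± 0.05 to 8.35 ± 0.06 (0.80 ± 0.05, adjusted p = 1.46e-06). The regulatory subunits of phosphoinositide 3-kinase gamma, Pik3r5 (0.43 ± 0.05, adjusted p = 2.02e-04) and Pik3r6 (0.42 ± 0.08, adjusted p = 0.00206), rose as well. Rgs19, which speeds the shut-off of G proteins, rose by 0.29 ± 0.07 (adjusted p = 0.00903, 0.0774 within set 1 and 0.127 within set 2). The 3 that fell were Rgs2 (-0.35 ± 0.10, adjusted p = 0.0211), Pik3cg (-0.18 ± 0.05, 0.0217) and Arrb1 (-0.40 ± 0.12, 0.0272). Within set 1, and without control replicate 4, 0 genes of this list fell. The count of 11 changed genes was 3 within set 1 and 6 within set 2. It was 7 without Meis1 deleted replicate 4, and 6, 7, 6 and 5 without control replicates 1, 2, 3 and 4 in turn.

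Among known activators of CC chemokine genes, 36 of 41 listed were tested. Of these 18 rose and 3 fell, beside 18.1% and 17.5% of all genes, with a median difference of 0.17. The largest rise was that of Tlr7, the receptor for single-stranded RNA, from 4.69 ± 0.09 to 7.25 ± 0.05 (2.56 ± 0.06, adjusted p = 1.82e-09). Irf9 (1.58 ± 0.12, adjusted p = 6.73e-06) and Stat2 (1.40 ± 0.10, adjusted p = 7.52e-06), which act in the response to type I interferon, rose as well. Tlr2, which senses bacterial lipoproteins, rose by 1.00 ± 0.05 (adjusted p = 3.87e-07).

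Rela and Rel, transactivating NF-kB subunits, did not pass: Rela read 8.97 and 8.96 in group means and Rel 5.67 and 5.64. Relb, another subunit of this kind, rose by 0.55 ± 0.09 (adjusted p = 0.00106) from a low level. Its control level (4.10) was below the filter threshold of 4.29, so Relb was tested only through its level in the deleted arrays. The cytokine gene Tnf rose by 0.25 ± 0.07 (adjusted p = 0.0192), a call lost within both sets (0.141 and 0.156) and without control replicate 2 (0.0554) or 3 (0.0545). Il1b rose by 0.58 ± 0.06 (adjusted p = 7.61e-05, and 0.0548 within set 2), while the interferon gene Ifnb1 (4.18 ± 0.07 and 4.21 ± 0.12) and Il6 (3.49 ± 0.12 and 3.25 ± 0.04) lay under the filter. Fosl2, an AP-1 subunit, fell by 1.16 (adjusted p = 9.54e-06), though its dimmest kept probe set did not pass (0.255). The AP-1 subunit genes Fos and Jun went the other way: Fos rose by 1.01 ± 0.08 (adjusted p = 1.29e-05) and Jun by 0.16 ± 0.04 (0.0211). The call for Jun was lost with the replicate block (0.0504), within sets 1 and 2 (0.189 and 0.114), and without Meis1 deleted replicate 3 (0.0624) or 4 (0.0555) or control replicate 1 (0.0530) or 3 (0.0584). Sp1 and Cebpa were the other two that fell, and the call for Cebpa was lost within set 2 (0.0743). Transcript levels do not measure the activity of these proteins.

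Of 23 tested genes listed as inhibitors of chemokine output 8 rose and 8 fell, beside 18.1% and 17.5% of all genes, with a median of 0.05. Usp18, which restrains interferon receptor signalling, rose from 3.71 ± 0.35 to 8.32 ± 0.12 (4.61 ± 0.15, adjusted p = 2.97e-08). Its control level was below the filter threshold, so it was tested only through its high level in the deleted arrays, and the size of its rise is uncertain. Zfp36l1, which promotes decay of cytokine mRNA, rose by 1.89 ± 0.09 (adjusted p = 2.43e-07), Atf3 by 1.43 ± 0.08 (7.08e-07) and Il1rn, the interleukin-1 receptor antagonist, by 1.79 ± 0.12 (3.23e-06). Zc3h12a, an RNase that degrades cytokine mRNA, fell by 0.95 (1.43e-05), and the NF-kB inhibitor Nfkbia fell by 0.47 (1.25e-04). Other genes that restrain NF-kB rose, Nfkbie by 1.27 ± 0.16 (2.43e-04) and Tnfaip3 by 0.65 ± 0.08 (1.66e-04). Nfkbiz of the same list rose by 0.44 ± 0.05 (1.29e-04, and 0.139 for its dimmest kept probe set). Whether Nfkbiz acts as an inhibitor in these cells was not tested.

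**Figure D5:**
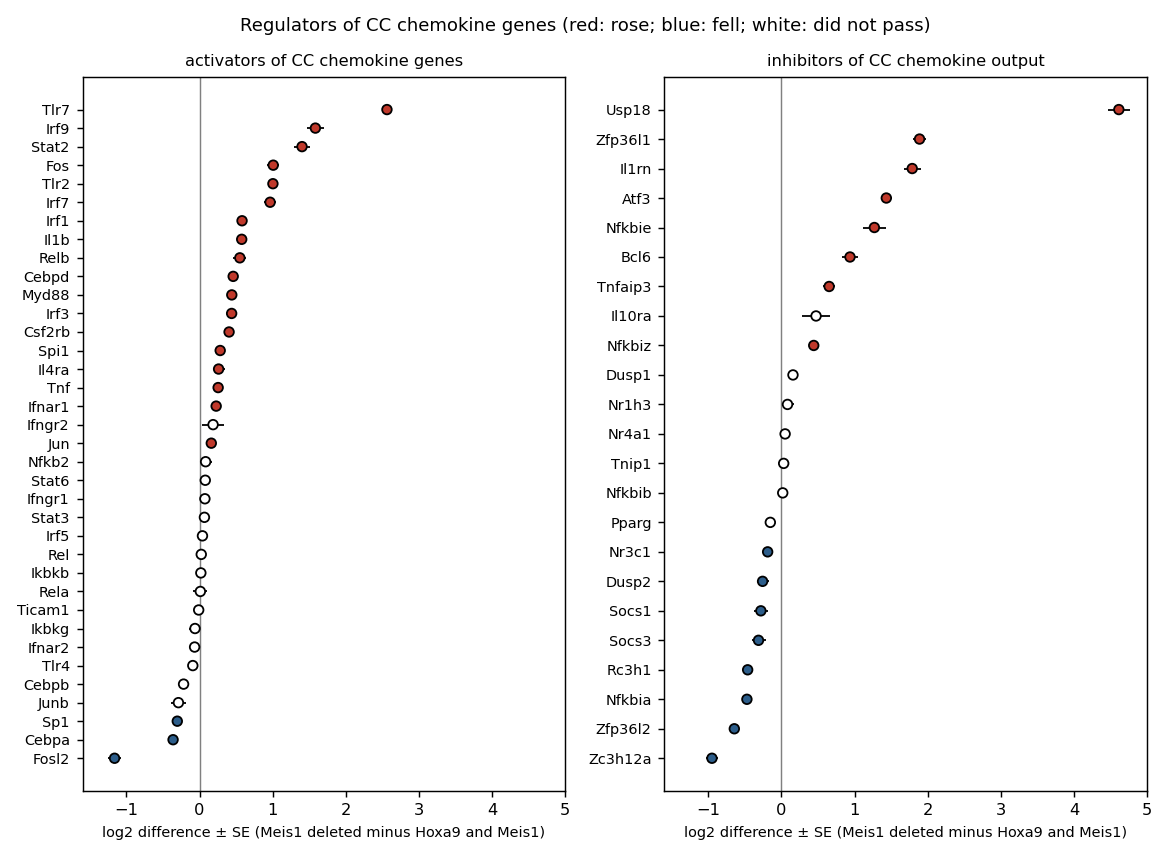
Log2 difference with SE (x axis, Meis1 deleted minus control, n = 4 per group) of tested genes listed as activators (left, 36 genes) and as inhibitors (right, 23 genes) of CC chemokine genes. Red marks genes that rose, blue genes that fell and white genes that did not pass; Tlr7 at 2.56 and Usp18 at 4.61 stand highest in their panels.

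Of 24 listed enzymes that trim chemokines and proteoglycans that hold them, 20 were tested, 9 rose and 4 fell, beside 18.1% and 17.5% of all genes, with a median of 0.14. Mmp12, the macrophage metalloelastase that cleaves CC chemokines, rose from 8.61 ± 0.06 to 10.48 ± 0.03 (1.88 ± 0.05, adjusted p = 3.74e-09), Mmp8 by 2.00 ± 0.05 (2.60e-09) and Mmp13 by 1.66 ± 0.08 (4.25e-07). Sdc3, a heparan sulphate proteoglycan, rose by 1.54 ± 0.06 (1.07e-07). Dpp4, the peptidase that clips the N-terminus of Ccl5 and other chemokines, lay under the filter at 3.56 ± 0.05 and 3.57 ± 0.06.

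The genes whose profile over the 8 arrays was closest to that of Ccl2, by Euclidean distance after removing each gene's mean, were Atp6v0d2 (0.34), C1qc (0.37), Ifi27l2a (0.42), Ifi213 (0.68) and Usp18 (0.70). Their log2 differences lay between 4.20 and 4.61, and the control levels of Atp6v0d2, Ifi213 and Usp18 were below the filter threshold. Atp6v0d2 encodes a proton pump subunit, C1qc a complement chain, and Ifi27l2a, Ifi213 and Usp18 are interferon-induced. Those closest to Ccl4 were Pilra (0.15), an inhibitory receptor of myeloid cells, Rnf150 (0.17), Pmp22 (0.19), Lrp11 (0.21) and Mpeg1 (0.22), which encodes a pore-forming protein of macrophages, with differences between 1.05 and 1.21. Distances over 8 arrays in a pair of groups rest mostly on the size of the group difference.

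Markers of other states and cell types were counted beside the chemokines and are to be read against the 18.1% of all genes that rose and 17.5% that fell. Of the macrophage and monocyte markers 11 of 14 tested rose and 1 fell, led by C1qb, Mrc1, Fcgr1 and C1qa, and their summed linear level was 21502 to 22447 in deleted and 11400 to 11583 in control arrays. The fall was that of Cd14 (-0.41 ± 0.04, adjusted p = 7.64e-05), while Itgam and the brightest Ccr2 probe set did not pass. The control level of C1qa (3.86) was below the filter threshold of 4.29, so C1qa was tested only through its high level in the deleted arrays. Of 12 neutrophil markers 9 rose, led by Ltf, Mmp8, Camp and Ngp, and 3 fell, Cxcr2, Elane and Prtn3 (sums 32613 to 33035 and 23198 to 23513). Of mast cell, basophil and eosinophil markers 1 of 6 rose and 2 fell (sums 400 to 548 and 522 to 550), and of dendritic cell markers 2 of 7 rose and 2 fell (388 to 403 and 249 to 265). None of 6 lymphoid markers changed at the limma threshold (181 to 201 and 185 to 194), and of stromal and endothelial markers 1 of 5 rose and 2 fell (263 to 317 and 343 to 353). The stromal and endothelial marker that rose was Vwf, which was tested only through its level in the deleted arrays. Of erythroid and megakaryocyte markers 2 of 7 rose and 0 fell, and their sum was 1406 to 1533 against 296 to 311, mostly from Pf4 (10.27 ± 0.06 against 6.43 ± 0.09), a chemokine gene that macrophages also express. Some of these calls held under few settings: that of Ms4a2, the mast cell marker that rose, was lost under 13 of 22 alternatives, and those of Gata2, Batf3 and Epor under 5, 9 and 6.

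Some defining markers of other cell types were left out by the filter on the mean of all 8 arrays: Cpa3, Fcer1a, Epx and Siglecf of mast cells and eosinophils, Xcr1 and Zbtb46 of dendritic cells, Cd3g and Pax5 of lymphocytes, and Col1a1, Col3a1 and Cdh5 of stroma and endothelium. Marco and Cx3cr1 of the macrophage and monocyte list were left out by this filter as well. Others from the same lists were measured above it. The dendritic cell and macrophage lectin gene Clec10a rose from 5.31 ± 0.05 to 7.48 ± 0.03, Cd74 rose by 0.57 ± 0.06 and the endothelial and megakaryocyte gene Vwf rose from 4.04 ± 0.04 to 4.91 ± 0.15. The control level of Vwf was below the filter threshold of 4.29, so it was tested only through the deleted arrays. Kit, of mast cells and progenitors, read 7.72 ± 0.27 and 7.80 ± 0.03, and the basophil gene Mcpt8 fell from 7.73 ± 0.08 to 6.99 ± 0.28 (adjusted p = 0.00144, and 0.0766 within set 1). The part of the macrophage and neutrophil markers in the chemokine differences was not tested.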

How the data were processed

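The 8 arrays are 1-colour Affymetrix arrays of cRNA from 100 ng RNA, per the labels. The deposited values are log2 expression values (2.65 to 13.2, 0 missing), and their near-equal quantiles are those of arrays normalized together. The submitters' processing notes list MAS5 without role or version. Not given in the sources used here: summarisation and build. Of 45037 probe sets without controls, the lowest 40% by mean were left out (27022 kept), and the brightest probe set with 1 symbol stood for each of 11836 genes. Differences were fitted with limma 3.58.1 in R 4.3.3, with the variance prior from all kept probe sets and Benjamini-Hochberg adjustment over genes, threshold 0.05. The adjusted p-values of the report are from this fit. Errors are SD over 4 arrays for levels and limma's SE for differences. In all, 4206 genes changed (35.5%).

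The design had allowed for linear values and an offset; the values were logarithms and were used as deposited. The 10 genes, the lists and the tests were chosen with earlier results of these data known. Named are all 10 genes, every tested CC receptor and other CC ligand, up to 4 genes per list with the smallest p, and the 5 genes closest to Ccl2 and to Ccl4; other genes were named after their values were seen, among them the chromosomal neighbours. Promoter windows came from RefSeq (GRCm38.p6), read with pandas 2.3.3 in Python 3.11.15; matplotlib 3.10.9 drew the plots. Proteins were not analysed here. Alternatives covered offsets, scaling, filters, the choice of probe set, the variance model, array weights, blocks, sets of arrays by the bioB control and leaving out each array. The procedure was tested on simulated data. Precision is limited by having 4 arrays in each group.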

Additional observations from a re-analysis of the deposited data

Results flagged for a closer look

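In a group of 4 arrays, 1 array stood apart where its gap to the nearest other array passed Dixon's critical share of the group's range, which chance gives in about 1 in 20 groups. Of 138 groups examined, 12 met this. Among the CC chemokine ligands, Ccl4 read 8.33 in Meis1 deleted replicate 3 against 8.46 to 8.48 in the other deleted arrays, and the brighter Ccl9 probe set read 11.83 in Meis1 deleted replicate 4 against 11.94 to 11.96. Both arrays remained above every control array of their gene.

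Meis1 deleted replicate 1 accounted for 6 of the 12. It read 10.35 for Rgs19, 10.69 for Mmp8, 11.19 for Mrc1, 4.83 for Cd4, 4.28 for Cd79a and 4.06 for Cxcl12. Meis1 deleted replicate 3 read 8.13 for Usp18 and 4.39 for Hdc. Among control arrays, replicate 2 read 7.62 for Mcpt8 and replicate 1 read 5.87 for Cd74.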

How the results depend on the processing

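All 10 CC chemokine ligands kept the direction of their difference under each of the 23 alternatives run, with values moving by less than the replicate SD in 218 of 230 cases. Their median of 1.56 was 1.27 with an offset of 64, 1.44 with each probe set alone, which counts Ccl9 by both probe sets, and 1.53 to 1.59 with 1 array left out. The count of 4206 changed genes was 2114 within bioB set 1 and 2158 within set 2, which hold fewer arrays and, in set 2, 1 deleted array assumed to vary as the rest do, and 3426 to 4673 with 1 array left out. The 11 changed signalling genes were 3 and 6 within sets 1 and 2, and 5 to 11 with 1 array left out. The single changed gene among other CC ligands was 0 with a filter at 60% of probe sets, with the mean of probe sets and within either set (limma in each case), and 1 to 2 with 1 array left out. Counting each probe set alone gave 4 calls for receptors, 34 for activators and 21 for proteases and proteoglycans. These count probe sets and not genes, in a setting where 6214 of 18749 probe sets passed, so they are not set against the gene counts. The brightest Ccr2 probe set, at -0.07, turned to 0.10 with the mean of its probe sets, 0.13 for its dimmest kept probe set, 0.021 within set 2 and 0.0037 without Meis1 deleted replicate 1 (-0.11 to 0.0037 with 1 array left out). Beyond these changes, whose cause was not tested, the variance prior from the tested genes alone, added after seeing the data, gave 4474 changed genes. With the replicate number as a block 3906 genes changed. Deviations of same-numbered samples correlated at 0.03, 0.22, -0.13 and 0.29, and 1 of 4 deleted arrays correlated best with its own number. So few correlations cannot settle if same-numbered samples were paired. The differences near the floor (Ccl7, Ccl12, Ccl8, Ccl5) are limited by signal over background.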
